A study of Mus musculus with 2 samples.

Results

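The genes described here encode the coat and fusion proteins of the lipid droplet, followed through nuclei of mouse brown adipose tissue. They are 9 of the 31053 genes in the deposited matrices: the 5 perilipins Plin1, Plin2, Plin3, Plin4 and Plin5, the CIDE genes Cidea and Cidec, and the droplet biogenesis genes Bscl2 and Fitm2. They were chosen by name, with earlier results of these data known, and all 9 were listed in both matrices. Brown adipose tissue came from C57BL/6 mice kept at thermoneutrality (called TN) or from C57BL/6 mice given a brief acute cold challenge 4 days before collection (called 1cyc). Nuclei of 5 mice per condition were pooled, sorted on the DNA stain DAPI and made into 1 droplet-based single-nucleus RNA library per condition. No source used here gives the age and sex of the mice, the temperatures, the length of the cold challenge or the housing after it. With 1 library per condition, a difference between TN and 1cyc is a difference between those 2 libraries, and it has no replicate check and no test.

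Lipid droplets are the organelles that store triglyceride under a single layer of phospholipid. Perilipins sit on that surface and set the access of lipases: Plin1 is the main coat protein of adipocytes and a target of protein kinase A, Plin2 coats droplets in most cell types, Plin3 moves between cytosol and nascent droplets, Plin4 coats small droplets in adipocytes, and Plin5 is found where droplets touch mitochondria in oxidative tissues. Cidea and Cidec act at the contact between droplets and pass lipid from the smaller to the larger, Cidec being known for the single large droplet of white adipocytes and Cidea for brown adipocytes. Bscl2 encodes seipin, which shapes new droplets at the endoplasmic reticulum and is mutated in congenital lipodystrophy, and Fitm2 encodes an endoplasmic reticulum protein needed for droplets to bud.

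Levels are given in CPM, the unique molecular identifiers (UMIs) of a gene summed over the nuclei of a class, divided by all UMIs of that class and scaled to 1000000. Intervals are exact 95% intervals (Poisson for a CPM, conditional binomial for a ratio, Clopper-Pearson for a share) and cover counting error only. A gene was measured in a comparison if it had at least 100 UMIs over both sums, and was called higher or lower if its CPM ratio reached 1.5-fold, which is a rule of size and not a test. No level is compared between genes, because CPM is not corrected for gene length. The libraries measure RNA in nuclei, and neither protein nor droplets were measured.

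The TN library held 2551 barcodes with a median of 800 UMIs, and the 1cyc library 4321 barcodes with a median of 378. Mitochondrial genes took a median of 4.76% of a barcode's UMIs in TN against 22.1% in 1cyc, and 6 barcode sequences occurred in both libraries. Adipocyte nuclei were barcodes with at least 4 UMIs over Pparg, Acsl1, Pde3b and Ppara and under 5% mitochondrial UMIs, which gave 1081 nuclei in TN and 912 in 1cyc, 1 barcode sequence being in both sets. Of these, nuclei with at least 3 UMIs over Nnat and Slc7a10 are called white-like (81 in TN and 23 in 1cyc), and the remainder are called other adipocyte nuclei (1000 and 889). At the limit for white-like lay 10 TN and 3 1cyc nuclei with 3 such UMIs, and just under it 18 and 4 with 2. The median depth was 856 UMIs in TN and 953 in 1cyc for the other adipocyte nuclei, and 1536 and 1335 for the white-like ones. Of 8 brown adipocyte markers, 7 had UMIs in the other adipocyte nuclei of both libraries (Cpt1b had none), and Ucp1, the uncoupling protein, had 136 CPM (TN) and 280.3 CPM (1cyc). In the white-like nuclei of TN the same list summed to 1738 CPM against 8789.8 CPM in the other adipocyte nuclei.

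Other RNA moved with the libraries. The 6 erythroid markers, mostly globins, summed to 41263 CPM in the other adipocyte nuclei of TN and 2837 CPM in 1cyc. Over the same nuclei, 10 endothelial markers summed to 492 and 139.6 CPM, 13 fibroblast or progenitor markers to 658 and 293 CPM, and 8 macrophage or monocyte markers to 271 and 36.7 CPM. By clustering, 86 of the 1081 adipocyte nuclei of TN (7.96%) and 37 of the 912 of 1cyc (4.06%) lay in clusters of other cell types. The part of these differences in the results below was not tested. Each ratio was also taken without the nuclei in other cell types' clusters and without the haemoglobin-rich barcodes. In the other adipocyte nuclei those ratios were 2.64 for Plin2, 1.87 for Plin3, 1.39 for Plin1, 1.2 for Cidea, 1.18 for Plin4 and 1.05 for Cidec, of which only that of Plin1 moved across the 1.5-fold limit used below.

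Among the other adipocyte nuclei, the perilipins Plin2 and Plin3 were the measured members that differed most between the libraries, both more than 2-fold higher in 1cyc. Plin1 was higher by a smaller factor, Cidea, Plin4 and Cidec were higher by less than 1.5-fold, and Plin5 and Fitm2 were not separable from equal levels at this depth. Of 9 members, 6 were measured here, all 6 had a ratio above 1 and 3 were called higher, none lower. Over all 3440 measured genes, 8.23% were called higher and 4.07% lower, and the median log2 ratio was 0.09, against 0.56 over the 6 members. Values for every gene and class stand in the plot of member levels.

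**Figure D1:**
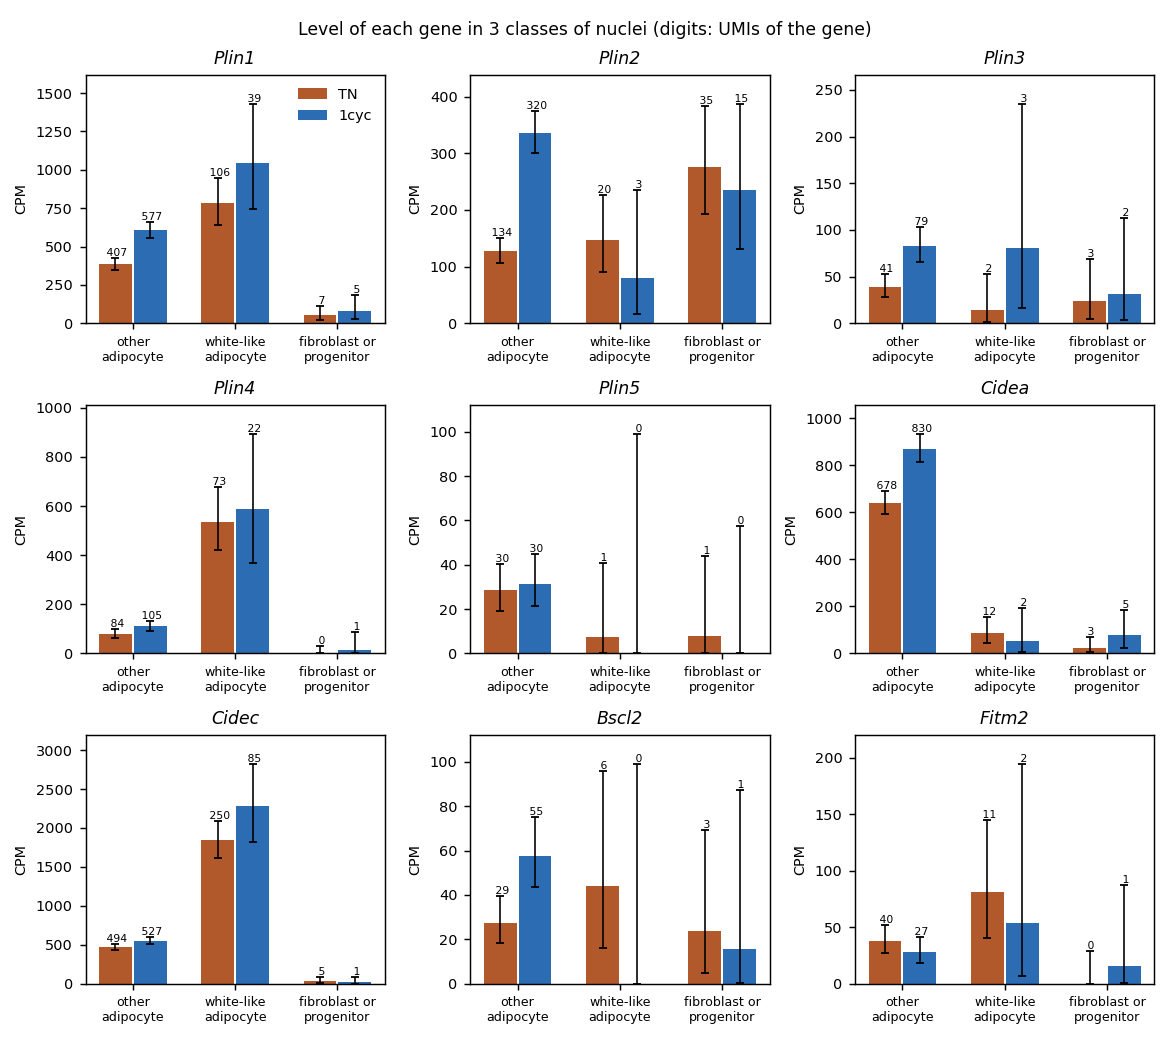
CPM of the 9 members in other adipocyte, white-like adipocyte and fibroblast or progenitor nuclei of the TN and 1cyc libraries. The axis is linear, and the bars carry exact 95% Poisson intervals. In other adipocyte nuclei Plin2 had 127 CPM (TN) and 336 CPM (1cyc), and Plin4 and Cidec were highest in the white-like nuclei of both libraries.

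Plin2 was counted 134 times in the other adipocyte nuclei of TN and 320 times in those of 1cyc. Its level was 127 CPM (95% interval 106 to 150.1) in TN and 336 CPM in 1cyc, so 1cyc was higher, and the ratio of 2.65 (2.16 to 3.27) was the 14th highest of the 3440 genes. Plin3 had 41 UMIs in TN and 79 in 1cyc. This put Plin3 at 38.8 CPM and 82.9 CPM, a ratio of 2.14 (1.45 to 3.20) and the 30th highest. Over 17 other ways of processing, the ratio of Plin2 ran from 2.35 to 2.95 and that of Plin3 from 1.87 to 2.53, so both kept their call in each.

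Plin1, the adipocyte coat perilipin, had 407 UMIs in TN and 577 in 1cyc, or 385 and 606 CPM, the higher in 1cyc. The ratio of 1.57 (1.38 to 1.79) passed the 1.5-fold limit narrowly. It dropped to 1.39 without the nuclei in other cell types' clusters and the haemoglobin-rich barcodes. With trimmed-mean scaling it was 1.46 and with median-of-ratios scaling 1.48. The call of Plin1 thus rests on these choices while its direction does not. Plin4 had 79.5 CPM (TN) and 110.2 CPM (1cyc), which makes a ratio of 1.39 (1.03 to 1.87). Plin5 had 30 UMIs in each library, giving 28.4 and 31.5 CPM, and its interval of 0.646 to 1.91 holds both lower and higher levels.

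Of the CIDE genes, Cidea had 678 UMIs in TN and 830 in 1cyc, or 641 and 871 CPM. Its ratio of 1.36 (1.23 to 1.51) was above 1 and below the call. Cidec had 494 and 527 UMIs, or 467 and 553 CPM, with a ratio of 1.18 (1.05 to 1.34). Cidea made up 57.8% (55.0% to 60.7%) of the summed Cidea and Cidec UMIs in TN and 61.2% (58.5% to 63.8%) in 1cyc, so the balance of the pair was close in both libraries. Bscl2, the seipin gene, had 29 and 55 UMIs, under the limit for a call, and its CPM went from 27.4 in TN to 57.7 in 1cyc, a ratio of 2.11 (1.32 to 3.42) that ran from 1.5 to 4.30 over 17 other settings, the highest at a mitochondrial limit of 2%. Fitm2 had 40 and 27 UMIs and a ratio of 0.749 (0.442 to 1.25), the only one below 1, in an interval that also holds a higher level in 1cyc. At a mitochondrial limit of 2% Fitm2 was instead at 1.33 and Plin5 at 0.896, so neither direction holds across settings.

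**Figure D2:**
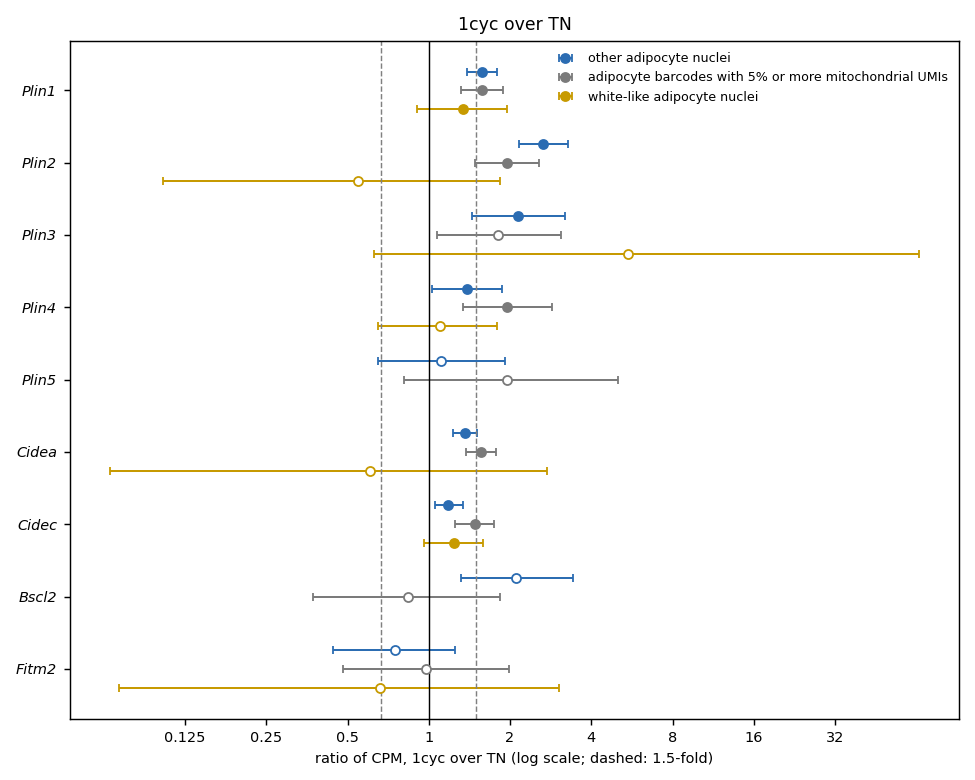
Ratio of CPM in 1cyc over TN for the members in adipocyte classes, the other adipocyte nuclei among them. The axis is a log axis, and the exact 95% intervals cover counting error. In other adipocyte nuclei Plin2 (2.65) and Plin3 (2.14) lie above the 1.5-fold line, while Plin4 and Cidec lie above 1 and below that line.

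Plin2 also took a larger share of the perilipin transcripts in 1cyc. Of the summed UMIs of the 5 perilipins in the other adipocyte nuclei, Plin2 made up 19.3% (16.4% to 22.4%) in TN and 28.8% (26.2% to 31.6%) in 1cyc, intervals that do not overlap. Plin1 went from 58.5% (54.7% to 62.2%) to 51.9% (49% to 54.9%), intervals that just touch. Plin3 made up 5.89% and 7.11%, Plin4 12.1% and 9.45%, and Plin5 4.31% and 2.70%, all with overlapping intervals. These shares are of UMIs and say nothing of which perilipin is most abundant per gene length.

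For Plin2, Plin3, Plin1, Cidea and Cidec, the higher CPM in 1cyc came with a larger share of nuclei carrying the transcript. After each nucleus was thinned to 500 UMIs, which left out 124 shallower nuclei of 1cyc and none of TN, Plin2 was detected in 6.10% of the other adipocyte nuclei of TN and 14.6% of those of 1cyc (11.5% and 25.4% unthinned). Plin3 was detected in 1.5% and 3.79% (3.70% and 8.21% unthinned), and Plin1 in 18.1% and 26.3% (30.9% and 41.8% unthinned). Cidea was found in 26% and 34.2% (43.3% and 51.3% unthinned) and Cidec in 19.0% and 23.4% (32% and 37.8% unthinned). Among the sparser members, thinned detection was 3.1% and 5.23% for Plin4, 1.7% and 3.53% for Bscl2, 1.8% and 1.05% for Plin5, and 2.5% and 1.31% for Fitm2. In fibroblast or progenitor nuclei, which should lack the adipocyte coat, thinned detection of Plin1 was 3.92% in TN and 3.70% in 1cyc, and that of Cidea 1.96% and 1.85%, at median depths of 1114 and 1002 UMIs. The shares of Plin1 and Cidea in adipocyte nuclei were above these background shares in both libraries. The fibroblast or progenitor nuclei were chosen to miss the adipocyte rule, however. Nuclei of their cluster that met it, 40 in TN and 15 in 1cyc, counted as other adipocyte nuclei. That choice can lower adipocyte transcripts in the background, so the comparison cannot show how far Plin1 and Cidea exceed it. The same fibroblast or progenitor nuclei gave 0.980% and 1.85% for Plin3 and 1.96% and 1.85% for Bscl2. The TN adipocyte share of Plin3 was above that level by little, and that of Bscl2 was not above it. Detection of Bscl2 in TN is thus not shown to exceed background. Whether fibroblast or progenitor nuclei express Plin3 and Bscl2 themselves was not tested, so their shares are an uncertain guide to background. For Plin2 no such background is given, since fibroblast or progenitor nuclei carried it themselves. At least 1 member was seen in 55.6% (52.5% to 58.7%) of thinned other adipocyte nuclei in TN and in 71.4% (68.0% to 74.6%) in 1cyc, and at least 2 members in 19.4% and 32.4%.

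**Figure D3:**
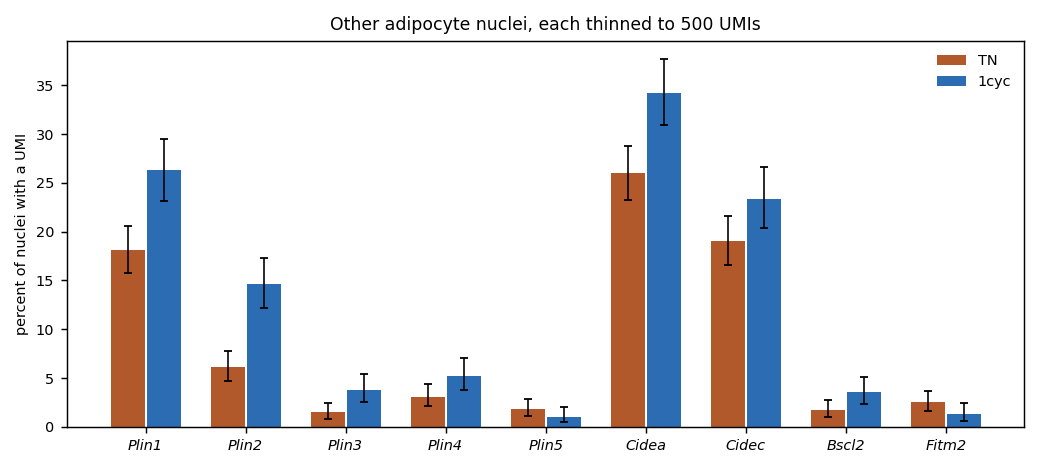
Percent of other adipocyte nuclei with at least 1 UMI of each member after thinning to 500 UMIs, in TN and 1cyc, with exact 95% Clopper-Pearson intervals. Plin2 was detected in 6.10% of TN and 14.6% of 1cyc nuclei, and Plin5 and Fitm2 were detected in under 3% of both.

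The other adipocyte nuclei of the libraries fell into the same clusters in different proportions, so the same genes were compared within clusters built without the 9 members. A cluster led by Rnf182 and Erbb4 held 601 of the 1000 such nuclei in TN and 220 of the 889 in 1cyc, and a cluster led by Ucp1, Acot11 and Gpd1 held 265 and 620. The CPM of Plin2 was 121 (TN) and 279 (1cyc) in the first, and 152 and 351 in the second. The ratio of Plin2 was 2.32 in both clusters, with intervals of 1.53 to 3.48 and 1.71 to 3.19. Plin1 had smaller ratios within clusters than over all other adipocyte nuclei, 1.1 (0.824 to 1.45) in the Rnf182-led cluster and 1.33 (1.11 to 1.59) in the Ucp1-led one. Cidea was at 787 and 774 CPM in the Rnf182-led cluster, a ratio of 0.984 (0.796 to 1.21), and at 769.6 and 939 CPM in the Ucp1-led cluster, a ratio of 1.22 (1.06 to 1.41). Plin3 had ratios of 1.63 (0.679 to 3.69) and 1.53 (0.920 to 2.67), whose intervals include 1. Within clusters, then, the ratio of Plin2 stayed above 2, that of Plin3 was lower than over all other adipocyte nuclei, and those of Plin1 and Cidea were closer to 1. The clusters were built from the expression of the same nuclei and are not an independent division.

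Over all adipocyte nuclei, 2 of the 6 measured members were called higher, beside 8.56% of 3643 genes called higher and 5.00% lower, and 4 of the 6 had a ratio above 1. Plin2 kept a ratio of 2.53 (2.08 to 3.08) and Plin3 one of 2.30 (1.57 to 3.41). Plin4 moved to 0.975 (0.765 to 1.24), from 132 CPM in TN to 128 CPM in 1cyc, and Cidec to 0.991 (0.889 to 1.1), from 624 to 618 CPM. The white-like nuclei held 11.4% of adipocyte UMIs in TN and 3.77% in 1cyc, but 46.5% and 17.3% of the Plin4 UMIs and 33.6% and 13.9% of the Cidec UMIs. Over 14 other settings the ratio ran from 0.663 to 1.22 for Plin4 and from 0.735 to 1.11 for Cidec, to both sides of 1. Within the white-like nuclei the ratio of 1cyc over TN was 1.1 for Plin4 and 1.24 for Cidec. Within the other adipocyte nuclei it was 1.39 and 1.18. The part of the white-like share in the ratios over all adipocyte nuclei was not tested. At a mitochondrial limit of 2% Plin4 was called lower in 1cyc over all adipocyte nuclei, at 0.663.

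Barcodes with adipocyte transcripts but 5% or more mitochondrial UMIs, which the rule leaves out, gave all 5 measured members the same direction. There were 816 in TN and 1637 in 1cyc, and levels were taken over UMIs that are not mitochondrially encoded. The 2 sets were unlike in quality. Their median depth was 698 UMIs in TN and 379 in 1cyc, and their median mitochondrial share 7.80% and 26.7%. The part of these differences in the ratios was not tested. Of the 5 measured members 4 were called higher, beside 7.03% of 2262 genes called higher and 9.02% lower. Plin2 had 138 CPM (TN) and 269 CPM (1cyc), which makes a ratio of 1.94 (1.48 to 2.57). Plin4 had a ratio of 1.95 (1.34 to 2.87), Plin1 of 1.58 (1.32 to 1.89), Cidea of 1.56 (1.37 to 1.78) and Cidec, below the call, of 1.48 (1.25 to 1.75). Among the unmeasured members, Bscl2 was at 0.838 (0.374 to 1.83) from 17 and 13 UMIs and Fitm2 at 0.980 (0.479 to 1.99), against a ratio above 1 for Bscl2 in the other adipocyte nuclei. Plin3 had 25 UMIs in TN and 41 in 1cyc, and Plin5 had 9 and 16, out of totals of 606614 and 553746. The CPM of Plin3 and of Plin5 was thus higher in 1cyc, but from too few UMIs for a call, and neither difference was tested.

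Among the members, Plin2 and Plin3 had the highest ratios between libraries in other adipocyte nuclei. Plin4 and Cidec had the highest ratios of white-like over other adipocyte nuclei. Promoter sequences are shown for these genes. They are RefSeq sequences of the GRCm38.p6 mouse build, read 5′ to 3′ on the gene's strand. Each window covers the 250 bases before the RefSeq start, less any bases in annotated exons, and for Plin3 it lies inside the annotated gene, before a start downstream of the first. Plin2 lies on the minus strand at chr4:86648386-86670060 and its shown promoter at chr4:86670061-86670309, Plin3 (minus strand) at chr17:56277476-56292873 with chr17:56290512-56290761, Plin4 (minus strand) at chr17:56100591-56109803 with chr17:56109804-56110032, and Cidec (minus strand) at chr6:113424634-113435760 with chr6:113435761-113436010. Capitals mark AGGTCA (the nuclear receptor half-site), CACGTG (the E-box) and TATAA (the TATA core), on either strand.
Plin2 promoter: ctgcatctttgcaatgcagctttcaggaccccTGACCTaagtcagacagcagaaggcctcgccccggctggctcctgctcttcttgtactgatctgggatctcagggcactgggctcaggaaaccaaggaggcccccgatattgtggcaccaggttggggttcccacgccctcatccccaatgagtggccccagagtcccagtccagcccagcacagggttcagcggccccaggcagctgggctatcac
Plin3 promoter: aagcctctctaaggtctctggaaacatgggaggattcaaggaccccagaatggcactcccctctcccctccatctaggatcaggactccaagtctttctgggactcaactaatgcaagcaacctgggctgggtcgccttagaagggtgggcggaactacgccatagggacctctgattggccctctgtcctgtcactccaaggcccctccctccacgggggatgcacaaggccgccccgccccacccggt
Plin4 promoter: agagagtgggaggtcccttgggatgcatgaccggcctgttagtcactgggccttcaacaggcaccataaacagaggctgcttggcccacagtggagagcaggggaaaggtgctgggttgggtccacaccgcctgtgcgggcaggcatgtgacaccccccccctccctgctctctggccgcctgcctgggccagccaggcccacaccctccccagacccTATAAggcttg
Cidec promoter 1: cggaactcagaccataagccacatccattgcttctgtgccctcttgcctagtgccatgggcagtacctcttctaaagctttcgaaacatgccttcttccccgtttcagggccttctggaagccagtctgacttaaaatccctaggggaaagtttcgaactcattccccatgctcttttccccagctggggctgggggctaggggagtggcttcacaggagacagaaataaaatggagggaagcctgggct

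The Plin2 window held an AGGTCA half-site, read as TGACCT on the shown strand, at position -218 from the start, a motif found in 14.0% of 32851 promoter windows of that length. The E-box CACGTG, in 6.02% of windows, was in none of the 4. The Plin4 window held TATAA at position -32, found in 22.8% of windows. The Plin3 window held none of these 3 motifs but had the GC box GGGCGG at positions -103, -19 and -14 (the motif is in 32.7% of windows), and CCAAT at -75 (33.8%), which Plin2 also had at -73. The Cidec window held none of the 5 motifs named so far, on either strand, and the direct repeat of the half-site with 1 base between, found in 0.0335% of windows, was in none of the 4. A match is a description of letters and not a bound site. Of the other members, Plin1 lies at chr7:79720218-79732903 (minus strand), Plin5 at chr17:56111601-56117596 (minus strand, 1797 bases from Plin4), Bscl2 at chr19:8837467-8848683 (plus strand) and Fitm2 at chr2:163466379-163472629 (minus strand), and all 9 members are protein-coding. Plin4 overlaps Hdgfl2, Bscl2 overlaps Gng3 and Fitm2 overlaps an antisense gene, each on the opposite strand, so reads of these pairs could be mixed if strand was not used in counting, which no source used here states. Of these neighbours Hdgfl2 had 47 UMIs in all of TN and 66 in 1cyc, and the others 3 at most. Bscl2 also overlaps a second gene on its own strand, which was not analysed here.

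White-like and other adipocyte nuclei carried a different mix of members. In both libraries Plin4, Cidec and Plin1 were higher in white-like nuclei and Cidea was lower. In TN, 3 of the 5 measured members were called higher and 1 lower, beside 16.7% of 2177 genes called higher and 24.0% lower. In 1cyc, 3 of 5 were called higher and 2 lower, beside 18.7% and 35.0% of 1959 genes. The classes were split on Nnat and Slc7a10 alone, and no member was used.

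Plin4 had 73 UMIs in the 81 white-like nuclei of TN and 84 in the 1000 other adipocyte nuclei, or 537 CPM (421 to 676) and 79.5 CPM. The ratio of 6.76 (4.87 to 9.37) was the 17th highest of the 2177 genes. In 1cyc Plin4 had 22 UMIs in 23 white-like nuclei, 589.7 CPM against 110.2 CPM, and its ratio of 5.35 (3.22 to 8.53) was the 12th highest of 1959. The white-like level of Plin4 was thus above the other adipocyte level in both libraries, with intervals far from 1.

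Cidec was at 1841 CPM (1619 to 2083) in white-like nuclei of TN against 467 CPM in other adipocyte nuclei, with 2278 against 553 CPM in 1cyc. Its ratios were 3.94 (3.37 to 4.60), the 47th highest in TN, and 4.12 (3.24 to 5.19), the 26th highest in 1cyc. Cidea went the other way, at 88.3 CPM from 12 UMIs against 641 CPM (TN), and 53.6 CPM from 2 UMIs, both in 1 nucleus, against 871 CPM in 1cyc. Its ratio was 0.138 (0.0708 to 0.242) in TN, the 31st lowest, and 0.0615 (0.00744 to 0.223) in 1cyc. The Cidea ratio in TN moved to 0.274 when white-like nuclei were taken from 2 UMIs of the marker genes and to 0.0697 when taken from 5. Cidea was 57.8% of the paired Cidea and Cidec UMIs in other adipocyte nuclei of TN but 4.58% (2.39% to 7.86%) in white-like ones, and 2.30% (0.280% to 8.06%) in white-like nuclei of 1cyc.

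**Figure D4:**
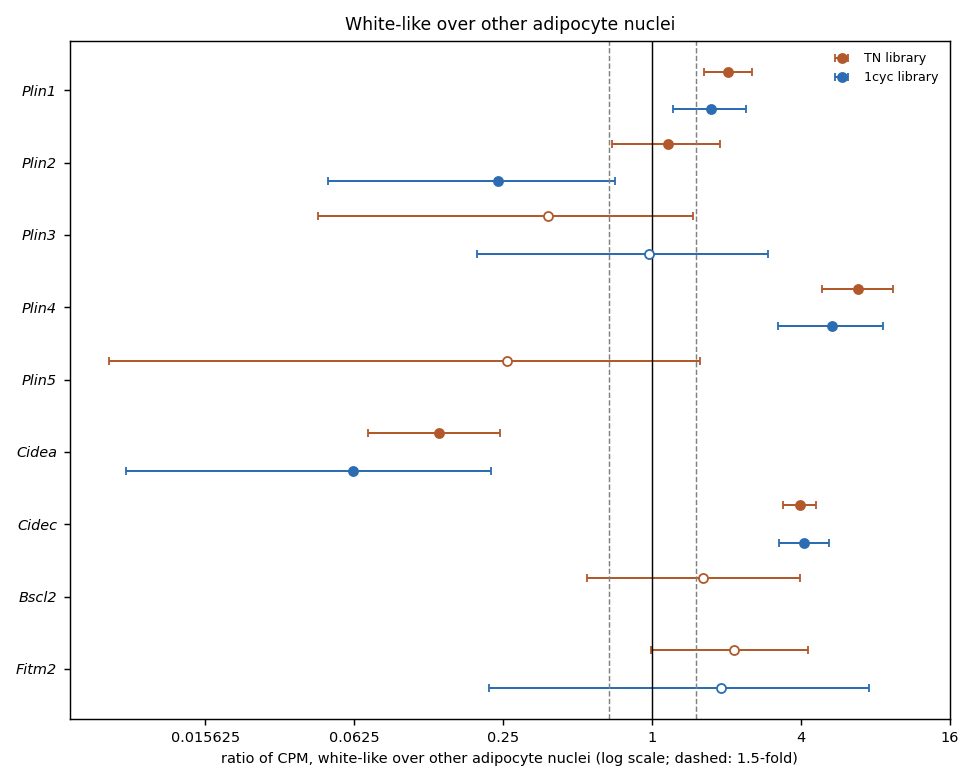
Ratio of CPM in white-like over other adipocyte nuclei for the members, within TN and within 1cyc, on a log axis with exact 95% intervals. Plin4 (6.76 and 5.35) and Cidec (3.94 and 4.12) lie to the high side in both libraries and Cidea (0.138 and 0.0615) to the low side.

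Plin1 was at 780.4 CPM in white-like nuclei of TN against 385 CPM, a ratio of 2.03 (1.62 to 2.52). In 1cyc it was at 1045 CPM against 606 CPM, a ratio of 1.73 (1.21 to 2.39), which was 1.28 and no longer called after thinning to 500 UMIs. Plin2 was near equal in TN, at 147 CPM from 20 UMIs against 127 CPM, or 1.16-fold (0.688 to 1.87). In 1cyc Plin2 had 3 UMIs in white-like nuclei, 80.4 CPM against 336 CPM, a ratio of 0.239 (0.0491 to 0.706). Plin3, Plin5, Bscl2 and Fitm2 had between 0 and 11 UMIs in the white-like nuclei of either library. For Plin5 and Bscl2, 0 UMIs in 1cyc allow a level of up to 80.4 CPM (3 counts), which is above their level in other adipocyte nuclei, so no difference could be seen. Of the other adipocyte nuclei, 46 in TN and 9 in 1cyc lay in the Nnat-led cluster that held 69 of the 81 and 21 of the 23 white-like nuclei, and in those 46 Plin4 was at 334 CPM and Cidec at 1711 CPM.

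Within the perilipins, Plin4 made up 36.1% (29.5% to 43.2%) of the UMIs in white-like nuclei of TN and 32.8% (21.8% to 45.4%) in 1cyc, against 12.1% and 9.45% in other adipocyte nuclei. Plin2 made up 9.90% and 4.48% in white-like nuclei. The Plin1 share was 52.5% and 58.2%, close to that in other adipocyte nuclei. In both libraries Plin4 thus took a larger share, and Plin2 a smaller one, in white-like than in other adipocyte nuclei.

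**Figure D5:**
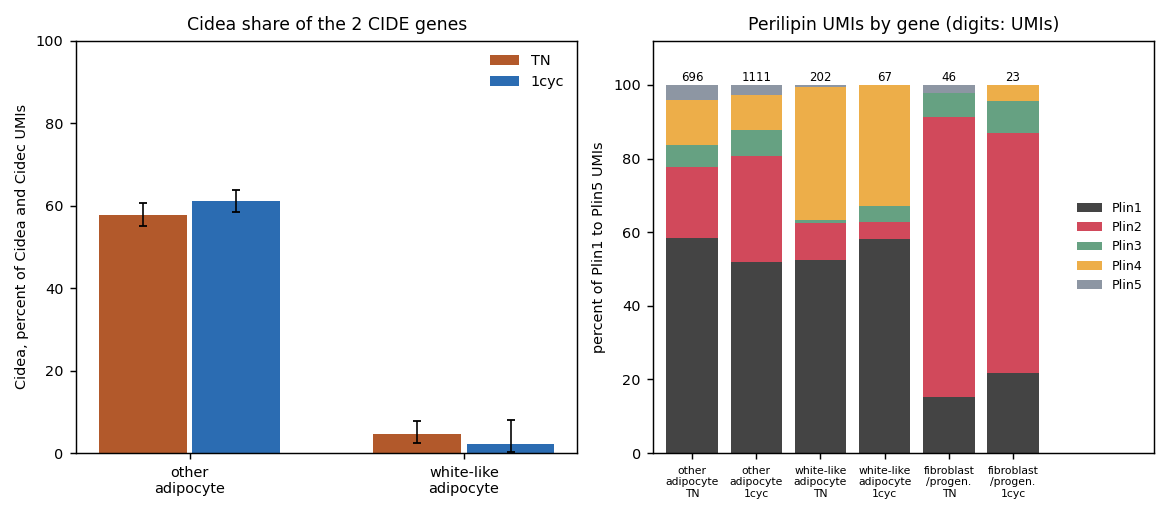
Left, Cidea as a percent of the summed Cidea and Cidec UMIs in other and white-like adipocyte nuclei of TN and 1cyc, with exact 95% intervals; right, the percent of perilipin UMIs from Plin1 to Plin5 in 3 nuclear classes of each library, with the number of UMIs above each bar. Cidea was 57.8% and 61.2% in other adipocyte nuclei and 4.58% and 2.30% in white-like ones, and Plin2 was 76.1% and 65.2% of the perilipin UMIs in fibroblast or progenitor nuclei.

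Between libraries, the white-like nuclei gave little to compare, since 1cyc held 23 of them. Of 9 members 2 were measured and 0 called, beside 4.30% of 186 genes called higher and 8.06% lower. Plin1 went from 780.4 CPM (TN) to 1045 CPM (1cyc), a ratio of 1.34 (0.903 to 1.95), and Cidec at 1841 and 2278 CPM, a ratio of 1.24 (0.956 to 1.59). Plin4, with 73 and 22 UMIs, was at 537 and 589.7 CPM, a ratio of 1.1 (0.648 to 1.79) that was 0.896 with trimmed-mean scaling. Plin2, with 20 and 3 UMIs, was at 147 and 80.4 CPM, a ratio of 0.546 (0.104 to 1.84).

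In fibroblast or progenitor nuclei most perilipin UMIs came from Plin2. It had 35 UMIs in 102 nuclei of TN and 15 in 62 of 1cyc, or 276 CPM (193 to 384) and 235 CPM, and the ratio between libraries was 0.849 (0.431 to 1.60). Plin2 was 76.1% (61.2% to 87.4%) of the perilipin UMIs in TN and 65.2% (42.7% to 83.6%) in 1cyc. Against other adipocyte nuclei of the same library the Plin2 ratio was 2.18 (1.46 to 3.18) in TN and 0.699 (0.387 to 1.17) in 1cyc. In TN, 1 of the 4 measured members was called higher in fibroblast or progenitor nuclei and 3 lower, beside 18% and 38.5% of 2200 genes, and in 1cyc 0 of 5 were called higher and 4 lower, beside 15.4% and 47.5% of 2038 genes. Plin1, at 55.3 CPM, had a ratio to other adipocyte nuclei of 0.144 in TN, Cidea one of 0.0369 and Cidec one of 0.0845. Plin4 had 0 UMIs in fibroblast or progenitor nuclei of TN, which allows up to 23.7 CPM, against 79.5 CPM in other adipocyte nuclei.

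In TN, Plin2 in this class came mostly from 1 finer cluster. A cluster led by Smoc2 and Col15a1 held 72 of the TN nuclei, with 33 Plin2 UMIs and 374 CPM (257 to 525). A cluster led by Sema3c, Fbn1 and Dpp4 held 30, with 2 UMIs and 52.2 CPM (6.33 to 189). In 1cyc the same clusters held 43 and 19 nuclei, with 12 and 3 Plin2 UMIs, or 262 and 167 CPM, whose intervals overlap. In 26 endothelial nuclei of TN Plin2 had 2 UMIs and Cidec 4, and in 12 pericyte nuclei Plin2 had 5, too few for a comparison.

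The remaining genes of lipid droplet metabolism were followed through a list of 36 lipases, acyltransferases and droplet proteins, of which 34 were in the files. This list and that of the regulators below were written with earlier results of these data known. In the other adipocyte nuclei 9 of its 22 measured genes were called higher in 1cyc and 0 lower, beside the 8.23% and 4.07% of all genes, with a median log2 ratio of 0.53 against 0.09. Pnpla2, the first lipase of triglyceride breakdown, had 48.2 CPM (TN) and 74.5 CPM (1cyc), which makes a ratio of 1.55 (1.06 to 2.26). Lipe, the hormone-sensitive lipase, had a ratio of 1.5 (1.35 to 1.68), and G0s2, which inhibits Pnpla2, one of 2.17 (1.51 to 3.16). Genes of both breakdown and synthesis were among the 9. Pnpla3, a droplet lipase related to Pnpla2 that is induced with lipogenesis, went from 100.3 to 367 CPM, a ratio of 3.66 (2.94 to 4.60), and Agpat2, an acyltransferase of triglyceride synthesis that like Bscl2 is a lipodystrophy gene, from 30.3 to 80.8 CPM, a ratio of 2.67 (1.75 to 4.17). Dgat1, the last step of triglyceride synthesis, had a ratio of 1.52 (1.14 to 2.05), Lpin1 one of 1.51, Abhd15 one of 2.97 and Ces1d one of 1.80. Dgat2, at 847 and 1229 CPM, fell short of the call at 1.45 (1.33 to 1.58). Of the 9 calls, 4 lay just past the limit: with trimmed-mean scaling Pnpla2 was at 1.43, Dgat1 at 1.41, Lpin1 at 1.39 and Lipe at 1.39, and 5 of the 22 genes were called (G0s2, Pnpla3, Agpat2, Abhd15 and Ces1d).

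In all adipocyte nuclei, 7 of the 24 measured genes of the list were called higher and 0 lower, namely G0s2, Pnpla3, Dgat1, Agpat2, Clstn3 (2.27), Abhd15 and Ces1d, beside the 8.56% and 5.00% of all genes. Abhd5, the coactivator of Pnpla2, had 49.5 CPM (TN) and 44.5 CPM (1cyc), with a ratio of 0.899 (0.594 to 1.35). Regulators of transcription were followed through a second list of 17, of which 13 were measured, and 3 of them were called higher and 0 lower: Cebpb (1.87), Prdm16 (1.60) and Esrra (1.66). In the other adipocyte nuclei 2 of 12 measured regulators were called, Cebpb at 1.80 and Esrra at 1.61, while Prdm16 was at 1.49, and with trimmed-mean scaling Cebpb alone was called. Pparg and Ppara, nuclear receptors known to act on perilipin and CIDE genes, were not called. In other adipocyte nuclei Pparg had a ratio of 1.13 (1.09 to 1.18) and Ppara of 1.31 (1.27 to 1.36), but both were part of the rule that chose the nuclei.

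Across the white-like split in TN, 8 of the 13 measured droplet pathway genes were called higher in white-like nuclei and 2 lower, beside 16.7% and 24.0% of all genes. Lipe was at 1281 CPM against 533 CPM, a ratio of 2.41 (2.02 to 2.86), and Cav1, the caveolin of the adipocyte surface, at 802 against 418 CPM, a ratio of 1.92. Pnpla3, at 0.587, and Dgat2, at 0.539 (0.409 to 0.697), were lower. Mgll, Ldah, Abhd15, Ces1d, Vps13c and Mettl7a1 were the others called higher, with ratios from 1.52 to 2.80. Of 9 measured regulators 0 were called higher and 6 lower: the brown adipocyte regulator Prdm16, at 0.141 (0.0513 to 0.309), Ppara, which the adipocyte rule uses, at 0.194, Esrrg at 0.194, Ppargc1b at 0.208, Ppargc1a at 0.446 and Esrra at 0.519. In 1cyc, 6 of 14 droplet pathway genes were called higher (Lipe, Mgll, Ldah, Cav1, Dgat1 and Vps13c) and 3 lower (Dgat2, Gpat4 and Abhd15), beside 18.7% and 35.0% of all genes. Abhd15 thus had opposite directions across the split, 2.59 (1.64 to 3.99) in TN and 0.438 (0.118 to 1.14) in 1cyc, the latter interval holding 1. The regulators gave 0 higher and 7 of 9 lower in 1cyc, the same 6 and Foxo1 (0.519).

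The lists were also read in the remaining comparisons. In the barcodes with 5% or more mitochondrial UMIs, 5 of 16 droplet pathway genes were called higher in 1cyc (Pnpla2, Lipe, Pnpla3, Dgat1 and Abhd15) and 3 lower (Ldah, Cav1 and Cavin1), beside 7.03% and 9.02% of all genes, and Ppara was the 1 of 9 regulators called, at 1.69. Between the white-like nuclei of the libraries, 0 of 3 droplet pathway genes were called, beside 4.30% of 186 genes called higher and 8.06% lower. Of 2 regulators Ppara, which the adipocyte rule uses, was called lower in 1cyc, at 0.597 (0.357 to 0.952). In fibroblast or progenitor nuclei of TN, 9 of 11 droplet pathway genes were lower than in other adipocyte nuclei (Lipe, Mgll, Pnpla3, Cav1, Dgat2, Gpat4, Lpin1, Ces1d and Vps13a), beside 38.5% of all genes. In 1cyc 14 of 14 were lower, beside 47.5%, adding Ldah, Dgat1, Abhd15, Vps13c and Mettl7a1. Of 9 regulators 8 were lower there in both libraries: Pparg, Ppara, Ppargc1a, Ppargc1b, Prdm16, Esrra, Esrrg and Mlxipl. For Pparg and Ppara this follows from the adipocyte rule, which uses both and which the fibroblast or progenitor nuclei miss.

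The genes nearest to each member in their pattern were sought over 8 class and library groups of at least 20 nuclei among 4046 genes, by Pearson correlation of log2(CPM + 10). The 8 groups come from 2 libraries and differ in depth, so these values are a description. Nearest to Cidec was Lipe (r = 0.982), then Npr3 and Fgf14. Nearest to Plin4 were Lgals12 (0.982), which encodes a galectin of adipocyte droplets, Ankef1 and Sntb1, and nearest to Cidea were Acss1 (0.983), a mitochondrial acetyl-CoA synthetase, and Pank1. Plin1 was nearest to Gm35552, Sugct and A530020G20Rik, Plin2 to Btbd10 (0.954), Eif2ak3 and Eda, and Plin3 to Gm44899, Fbxo31 and Decr1. Among the members, Cidec correlated with Plin4 at 0.92 and with Cidea at 0.30, and Plin2 with Plin4 at 0.19, so over these groups Plin2 and Cidea ordered differently from Cidec and Plin4.

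Nuclei with transcripts of lipogenic enzymes were set beside nuclei without them, since the study's title names lipogenic brown adipocytes. Other adipocyte nuclei were thinned to 500 UMIs and split by whether they kept at least 1 UMI over Acly, Acaca, Fasn, Elovl6, Scd1, Scd2, Acss2 and Me1 (671 with and 329 without in TN, 609 and 156 in 1cyc). Cidea was at 933 CPM with and 603 CPM without in 1cyc, a ratio of 1.55 (1.13 to 2.16), and at 679.6 and 547 CPM in TN, with a ratio of 1.24 (0.969 to 1.60). Plin2 was at 368 and 269 CPM in 1cyc, with a ratio of 1.37 (0.852 to 2.29), and had a ratio of 0.858 (0.508 to 1.48) in TN. For Plin1 the ratios were 1.02 in TN and 0.928 in 1cyc, and for Cidec 0.903 and 1.11, with intervals that hold 1. At 500 UMIs, Cidea in 1cyc was the single member whose interval lay clear of 1 in this split. With nuclei thinned to 800 UMIs the Cidea ratio was 1.81 (1.28 to 2.63) in TN and 1.69 (1.13 to 2.65) in 1cyc, both clear of 1, and the intervals of the other members held 1.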

How the data were processed

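Raw UMI counts per gene and barcode were deposited by the authors. The submitters' processing notes name Cell Ranger 3 and the mm10 build, and the matrix headers name software 3.1.0. No source used here gives the annotation, the use of intronic reads or the strand setting. No column was left unused (0). UMI counts were summed over nuclei and scaled to CPM with Python 3.11.15, numpy 2.4.6 and scipy 1.17.1. Barcodes with under 5% mitochondrial UMIs and at least 200 genes (1303 in TN, 1065 in 1cyc) were clustered by Leiden at resolution 0.6 with scanpy 1.11.5 on 2000 variable genes and 30 components, the 9 members left out. Clusters were named from fixed marker lists, needing 3 markers at 1.5-fold. That naming rule, and the 50% haemoglobin limit that kept haemoglobin-rich barcodes out of the naming, were set after the data had been seen. Over all barcodes 50 in TN and 17 in 1cyc reached that limit, not all of which were clustered. Non-adipocyte classes are nuclei of those clusters that miss the adipocyte rule. Scrublet called 11 and 8 doublets, which were kept. Trimmed-mean factors came from edgeR 4.0.16 in R 4.3.3, and the computations were tested on simulated data. The text names all 9 members, every gene of the 2 lists past the 1.5-fold call, Pnpla2, Abhd5, Lipe, Pparg, Ppara, Dgat1 and Dgat2, and the 3 genes nearest each member in pattern, of which 1 is not reported here. The members and lists were chosen with earlier results of these data known. Promoters of 8 of the 9 members came from the RefSeq table of GRCm38.p6.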

Additional observations from a re-analysis of the deposited data

Results flagged for a closer look

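Plin2, the perilipin of most cell types, had opposite directions in the 2 adipocyte classes. In the other adipocyte nuclei its CPM ratio of 1cyc over TN was 2.65 (2.16 to 3.27), from 134 and 320 UMIs. In the white-like nuclei the ratio was 0.546 (0.104 to 1.84), from 20 and 3 UMIs in 81 and 23 nuclei. The white-like interval also holds a higher level in 1cyc, and the difference between the 2 ratios was not tested, since each condition is 1 library. The white-like ratio was below 1 in each of 15 other ways of processing, from 0.288 to 0.824.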

How the results depend on the processing

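No paired analysis was possible because each condition is 1 pooled library. Of the counts of calls recomputed under other settings, 61 stayed within 1.5 times the reported count and 8 did not. Over all adipocyte nuclei, 4 members instead of 2 were called at a mitochondrial limit of 10%, and 4 with at least 3 adipocyte UMIs. Over other adipocyte nuclei, 5 instead of 3 were called with no mitochondrial limit and mitochondrial UMIs left out, a setting added after the data had been seen. Over white-like nuclei, 1 instead of 0 was called between libraries by the mean of per-nucleus CPM (Plin1, 1.55), and 3 instead of 5 across the split in 1cyc after thinning to 500 UMIs. Of the regulators, 5 instead of 3 were called with a minimum of 30 UMIs. In other adipocyte nuclei trimmed-mean scaling, added after the data had been seen, left 5 of 9 droplet pathway calls and 1 of 2 regulator calls. Trimmed-mean scaling shifted the median log2 ratio of all genes by 0.101 over all adipocyte, 0.113 over other adipocyte and 0.292 over white-like nuclei, and changed the direction of no measured member. Depth limits Plin5, Bscl2 and Fitm2, with under 100 UMIs over both adipocyte sums, and every white-like value of 1cyc, where 1 UMI is worth more than in the other classes.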

Other observations

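Other adipocyte nuclei were also split by whether they kept a Ucp1 UMI after thinning to 500 UMIs, which gave 68 nuclei with and 932 without in TN and 90 and 675 in 1cyc. In 1cyc Plin2 was at 644 CPM with Ucp1 and 308 CPM without, a ratio of 2.09 (1.34 to 3.18), while in TN the ratio was 0.884 (0.234 to 2.38) from 4 UMIs in the nuclei with Ucp1. Thinned to 800 UMIs, Plin2 had ratios of 1.92 (1.30 to 2.79) in 1cyc and 1.37 (0.483 to 3.19) in TN. Plin4, the small-droplet perilipin, was at 206 and 53.6 CPM in TN, a ratio of 3.84 (1.40 to 9.13) from 7 and 25 UMIs, and had a ratio of 1.59 (0.594 to 3.66) in 1cyc. At 800 UMIs the TN ratio of Plin4 turned to 0.750 (0.0872 to 2.93), from 2 and 33 UMIs, so its direction rests on the depth chosen. Cidea had ratios of 1.32 (0.864 to 1.95) in TN and 1.21 (0.867 to 1.66) in 1cyc, which hold 1, but at 800 UMIs 1.55 (1.06 to 2.21) and 1.41, whose intervals lie clear of it. At 800 UMIs in 1cyc, Plin1 was at 1.39 (1.01 to 1.87), Cidec at 1.39 (1.000 to 1.90) and Bscl2 at 3.16 (1.05 to 8.70), from 7 and 12 UMIs. At 500 UMIs the intervals of Plin1, Cidec and Bscl2 in 1cyc held 1. Plin5 and Fitm2 were both at 0.903 in 1cyc at 800 UMIs. Whether these ratios differ between the libraries was not tested.

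The share of nuclei with 1 member was set beside the presence of another, with overlapping intervals in each pair given, and the differences were not tested. Of thinned other adipocyte nuclei with a Cidea UMI, 23.5% (18.4% to 29.1%) in TN also had Cidec, against 17.4% (14.8% to 20.4%) of those without Cidea. In 1cyc the shares were 25.2% (20.1% to 30.9%) and 22.5% (18.9% to 26.4%). Plin1 was found in 27.7% (19.6% to 36.9%) of nuclei with Plin2 and in 26% (22.7% to 29.6%) of those without it in 1cyc. Cidea was found in 36.1% (24.2% to 49.4%) of the TN nuclei with Plin2 and in 25.3% (22.6% to 28.3%) of those without, and in 30.4% and 34.9% in 1cyc, with overlapping intervals in both libraries.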
